A study of Schizosaccharomyces pombe with 16 samples.

Results

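The mitochondrial ribosome of the fission yeast Schizosaccharomyces pombe makes the few proteins that the mitochondrial genome encodes, most of them subunits of the respiratory chain and of the ATP synthase. Its proteins are encoded in the nucleus, translated by cytosolic ribosomes and imported, and they assemble into a large and a small subunit. Some descend from bacterial ribosomal proteins and others occur only in mitochondria. In budding yeast, expression of these genes is known to be set apart from that of the cytosolic ribosomal proteins. The genes described here were taken by name (mrpl, mrps, mrp or rsm followed by a number) or by the words mitochondrial ribosomal protein in the deposited gene description, with mitochondrially encoded genes left out. Of 7014 genes in the count table, 76 met this rule. Among them 74 are annotated as mitochondrial ribosomal proteins, and all 74 passed the filter on low counts that left 6170 genes for testing. The other 2 share only the name: rsm1, an RNA export factor, and mrp1, the RNA of RNase MRP, which was listed at 0 in 15 libraries, had 0.0405 CPM (counts scaled to a common library total) in the other and was not tested. By the RefSeq product name, or the description where that gives no subunit, 43 of the 74 belong to the large subunit, 28 to the small subunit and 3 were unassigned. Names of the bacterial type were given to 43 members and names of the mitochondria-specific type to 18.

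Libraries were sequenced from total mRNA and from the polysomal fractions of sucrose gradients, of WT (972) cells and of eIF2α.S52A cells (in the study's strain list eIF2alfa.S52A:Ura4 ura4-D18 h-), in which the phosphorylated serine of the translation initiation factor eIF2α is replaced by alanine. Both strains grew in YES medium at 30 °C and were collected in exponential phase (0 h) and after 6 h more, at early entry into stationary phase. The 16 libraries make 8 groups of 2 replicates, numbered 1 and 2 in the labels. Replicates of the same number were taken here as 1 experiment, A for number 1 and B for number 2. The mutant also differs from WT in carrying the ura4 deletion and a Ura4 marker, so the allele and the marker cannot be told apart. Total counts ranged from 11279417 to 20522997 per library. Cytosolic ribosomal protein mRNAs held 12.7 to 53.4% of the counts, and in S52A at 6 h they held more in experiment B than in experiment A in both fractions, 22.5 against 15.6% of total mRNA and 45.9 against 31.1% of polysome counts. Values below are relative to each library, since counts of a bulk library cannot tell fewer cells from less RNA per cell.

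Start codon surroundings are shown for the members at both ends of the order of polysome versus total mRNA in WT cells at 0 h, described further on, and for mrp17, the 1 member called between strains. Each line gives 12 bases before the start codon, the start codon in capitals and the next bases, from the RefSeq assembly ASM294v3. Members without 12 bases of annotated 5′-leader, such as mrpl44, mrpl19, mrpl38 and cox1102, could not be shown. Of the members with such a leader, ymr31, mrpl22, mrp2 and mrpl31 had the highest values and mrpl20, mug178, SPAC3A12.19 and mrps16 the lowest.
ymr31: atcaacgcagaaATGgttagaaaa
mrpl22: taagatttaattATGaaatacatt
mrp2: gaaataaaaaatATGagggctttg
mrpl31: tatacgaaaaatATGctgggtgca
mrpl20: aagagtaaaaacATGttgtttaca
mug178: atcaaaattataATGaagtttcct
SPAC3A12.19: gagttattcaaaATGcatcaatca
mrps16: cggctcttctcaATGgtagtaaaa
mrp17: tatagcaatataATGgttatgtat
An A at the 3rd base before the start codon, the base most favoured there in yeasts, was present in 42 of the 62 members with at least 12 bases of annotated leader (67.7%) and in 61.4% of 4366 tested genes with such a leader. An ATG upstream of the start lay in the leaders of 25 of these 62 members (40.3%) and of 37.4% of the genes. The median leader was 101.5 bases for members and 102 bases for the genes. By these measures the leaders of members were close to those of other genes, and no test was run.

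The regions before the annotated transcript starts set members apart from the cytosolic ribosomal proteins. In fission yeast the HomolD box (CAGTCACA) stands in for a TATA box at most cytosolic ribosomal protein genes, often with an upstream HomolE element (CCCTACCC with A before it and T after it). Within 250 bases before the start, on either strand, the HomolD box was found in 0 of 74 members, in 88 of 141 cytosolic ribosomal protein genes (62.4%) and in 134 of all 5138 promoters (2.61%). HomolE was found in 2 members, mrp51 and ymr31 (2.7%), in 28.4% of the cytosolic ribosomal protein genes and in 1.21% of all promoters. Its core CCCTACCC alone, which lies inside it, was found in 2 members (2.7%) against 1.54% of all promoters. Other short motifs were about as common before members as elsewhere: AATTTTT in 26 members (35.1% against 31.9% of all promoters), AAAATTTT in 7 (9.46 against 6.99%) and GATAAG in 6 (8.11 against 10.1%). No leader is annotated for 7 members and for 627 of all genes, and the window of these ends at the coding start. The stretches of 30 bases around both HomolE matches are given with the motif in capitals, followed for comparison by the HomolD boxes of rpl8 and rps102, the cytosolic ribosomal protein genes with this box and the highest level in WT total mRNA at 0 h.
mrp51: ttacatttaaACCCTACCCTaacttaccgg
ymr31: gcaagtaccaACCCTACCCTacccatttaa
rpl8: gtttgctaaaCAGTCACAcagtatccaaaa
rps102: caaaaaaggaCAGTCACAaatagcactttg
A match describes these letters and is not a measured binding site.

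Members formed a narrow range of levels. In WT total mRNA at 0 h their median was 81.1 CPM per kilobase of coding sequence, and the middle 80% of members lay between 51.9 and 158. All tested genes with a coding length had a median of 42.2 and a middle range of 9.77 to 239 on the same scale. Large-subunit members had a median of 80.0 and small-subunit members of 85.0 CPM per kilobase, against 2610 for the cytosolic ribosomal proteins and 273 for nuclear genes of the respiratory chain and ATP synthase. High levels per kilobase were those of mrps16 (S16, small subunit, 220 ± 21.9, SD, n = 2), mrpl12 (bL12m, a protein of the factor-binding stalk, 194 ± 30.1) and mrp17 (bS6m, 182 ± 13.1). The lowest were cox1101 (2.08 ± 0.187), cox1102 (2.37 ± 0.291), SPAC3A12.19 (L27, 23.8 ± 3.46) and mrpl20 (mL58, 27.9 ± 3.47). cox1101 and cox1102 encode fusions of rsm22 with the copper chaperone cox11 for cytochrome c oxidase, and 2259 of their 2262 coding bases are identical. How the counting treated reads that match both copies is not known here, and the values of this pair are uncertain.

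The share of all counts held by the 74 members was steady in total mRNA and varied in polysome fractions. In WT total mRNA it went from 0.563 and 0.605% at 0 h to 0.639 and 0.634% at 6 h, and in S52A from 0.523 and 0.582% to 0.572 and 0.540%. In WT polysomes it went from 0.372 and 0.446% to 0.542 and 0.609%, and in S52A polysomes from 0.287 and 0.357% to 0.477 and 0.425%. The 6 h libraries were thus above the 0 h libraries in polysomes of both strains, while the cytosolic ribosomal protein share of these libraries moved the other way, from 46.3 and 47.7% to 30.1 and 27.2% in WT and from 53.4 and 53.1% to 31.1 and 45.9% in S52A. After TMM scaling, which takes such shifts in composition out, the summed members went from 6104 and 6734 CPM to 6314 and 6410 CPM in WT polysomes. In S52A polysomes the sums went from 6611 and 7044 CPM to 6424 and 6267 CPM. On this scale the time groups overlapped in WT and did not overlap in S52A, where both 6 h sums were lower.

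**Figure D1:**
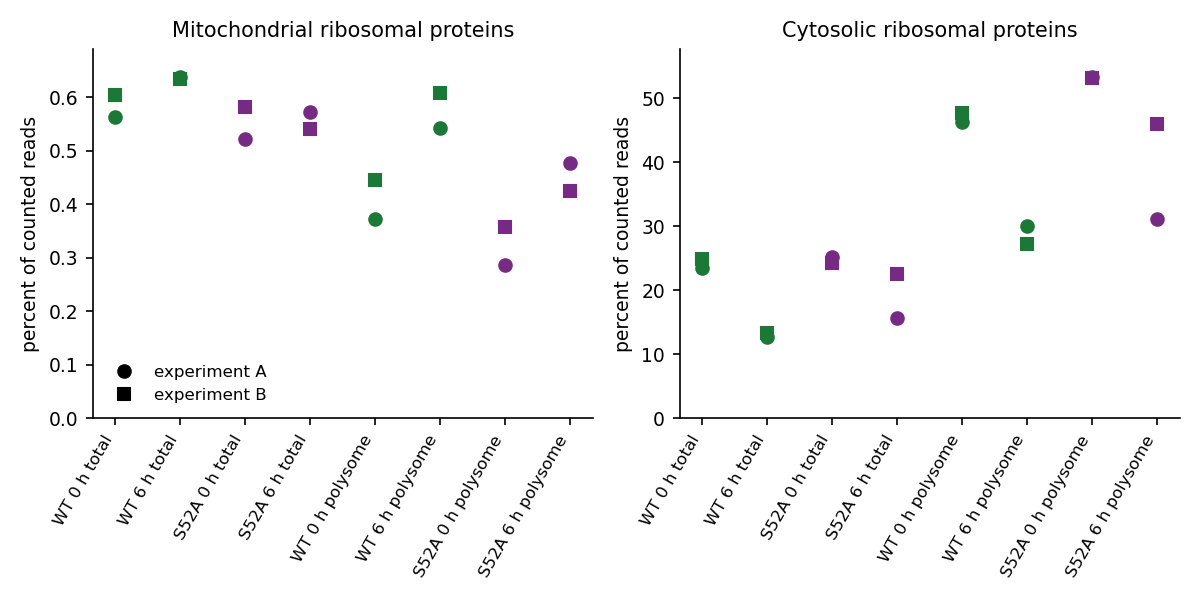
Percent of counted reads held by the 74 mitochondrial ribosomal protein genes (left) and by the 150 cytosolic ribosomal protein genes (right) in each library, with green for WT, purple for S52A, circles for experiment A and squares for experiment B. In polysomes the members' share was 0.287 to 0.446% at 0 h and 0.425 to 0.609% at 6 h, where the cytosolic share was lower than at 0 h.

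The first question was how these mRNAs changed between exponential growth and entry into stationary phase. In WT polysomes the members stayed together near 0: their median log2 change was 0.02 and 68 of 74 lay within 0.5 of 0, against 53.7% of all genes. None rose, where 8.57% of all tested genes did, and 2 fell, mrp49 and mrp17, where 8.9% of all genes fell (edgeR's quasi-likelihood test with Benjamini-Hochberg adjustment, adjusted p under 0.05). At an unadjusted p under 0.05 there were 8 members, 4 in each direction (33.2% of all genes, in either direction, passed this). The DESeq2 test called 3 members (23.7% of all genes) and a fit with the experiment as a block called 5 (27.4%). In S52A polysomes the median was -0.11, 2 members rose, mrp17 and SPCC777.17c (3.4% of all genes), and 0 fell (3.58% of all genes). Here 18 members, 11 of them lower, had an unadjusted p under 0.05 (24.2% of all genes), and 6 were called by DESeq2 (14.4%) and by the block fit (13.7%). In total mRNA the medians were -0.03 in WT and -0.07 in S52A. No member was called in WT total mRNA, where 6.0% of all genes rose and 6.01% fell, with 3 members at an unadjusted p under 0.05 (29.5% of all genes) and 1 called by DESeq2 (20.2%) and by the block fit (22.3%). None was called in S52A total mRNA, where 2.12% rose and 0.746% fell, with 6 members at an unadjusted p under 0.05 (18.2% of all genes), 4 called by DESeq2 (7.79%) and 3 by the block fit (7.49%).

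The direction of the calls in polysomes depended on scaling, since scaling to library size alone moved the median change of all genes by 0.51 in WT and 0.59 in S52A. With that scaling 19 members were called in WT and 18 in S52A, all higher, beside 29.8 and 30.8% of all genes called higher. Without the cytosolic ribosomal protein counts 1 member was called higher in WT (10.5% of all genes) and 2 in S52A (6.27%), and none lower. With RLE size factors mrp17 and SPCC777.17c were not called in S52A (adjusted p = 0.0522 and 0.0582) and 2 members were called lower (4.28% of all genes). Under each of 4 scalings the members' median was 0.02 to 0.03 above that of all genes in WT and 0.11 to 0.12 below it in S52A. A scaling moves members and all genes of a comparison nearly alike, so this distance was hardly free to vary. Changes below are relative to the TMM scale.

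**Figure D2:**
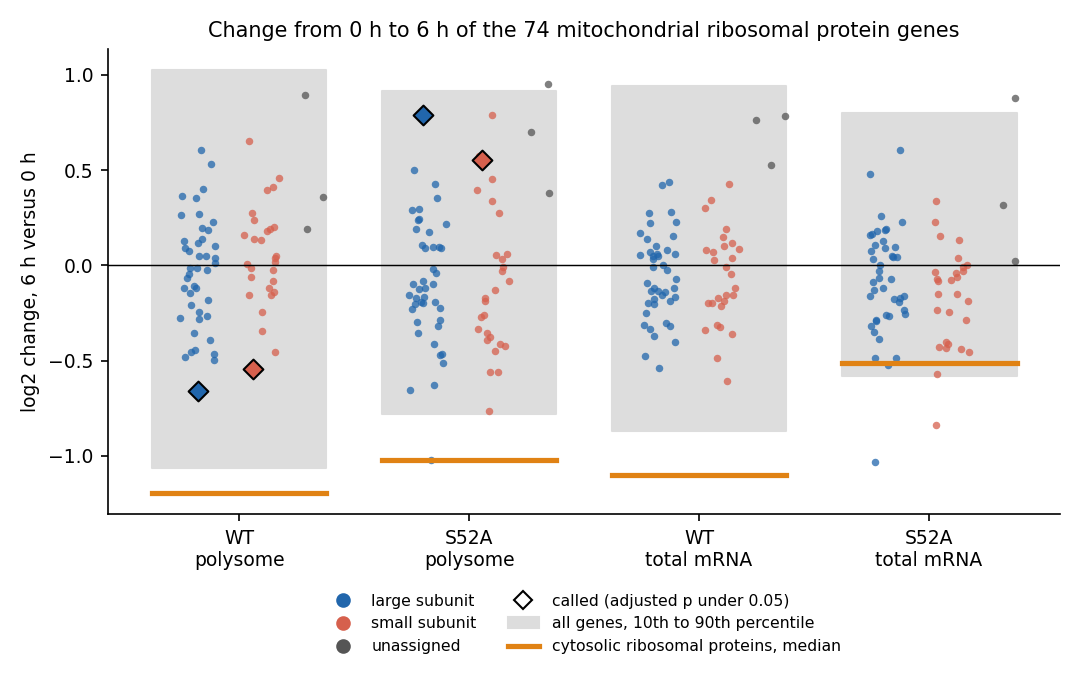
Log2 change from 0 h to 6 h of each of the 74 members (points, coloured by subunit; diamonds were called) in polysome fractions and total mRNA of both strains. Grey boxes span the 10th to 90th percentile of all tested genes and orange lines mark the median of cytosolic ribosomal proteins, which was -1.20, -1.02, -1.10 and -0.51 from left to right while the members' medians lay between -0.11 and 0.02.

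The cytosolic ribosomal proteins had medians of -1.20 in WT polysomes, -1.02 in S52A polysomes, -1.10 in WT total mRNA and -0.51 in S52A total mRNA, with 116, 81, 115 and 0 of 150 called lower. Nuclear genes of the respiratory chain and ATP synthase had medians of 0.34, 0.07, 0.31 and 0.29 in the same order, with 2, 1, 2 and 1 of 44 called higher and 0 lower. Mitochondrial translation factors (0.06, 0.16, -0.04 and -0.02, n = 30), mitochondrial tRNA ligases (0.02, 0.00, -0.13 and -0.17, n = 18) and import components (-0.21, -0.01, -0.24 and -0.22, n = 26) had medians near those of the members. Among the translation factors 2 fell in WT polysomes and 1 in WT total mRNA, with no other call. Among the tRNA ligases 2 rose and 1 fell in WT polysomes, and 1 fell in S52A polysomes and in WT total mRNA. Among the import components 2 fell in WT polysomes, and 2 rose and 1 fell in S52A polysomes. Both mitochondrial ribosomal subunits had medians near 0, from -0.12 to -0.01 for the large and from -0.15 to 0.03 for the small subunit over the 4 time changes. Counted over both experiments and all 4 time changes, 4 members were higher at 6 h in every pair of libraries (5.41%, against 17.0% of all genes) and 6 were lower in every pair (8.11%, against 18.9% of all genes and 86.0% of the cytosolic ribosomal proteins). The 4 were cox1102, mrp51, mrpl51 and SPCC777.17c, and the 6 were rsm7, mrp2, mrp5, SPBC16A3.14, mrpl23 and rsm23.

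mrp17, which encodes the small-subunit protein bS6m, fell in polysomes of WT and rose in those of S52A on the TMM scale. In WT polysomes it went from 62.8 and 55.3 CPM at 0 h to 41.4 and 39.6 CPM at 6 h. In S52A polysomes it went from 46.3 and 50.3 CPM to 67.2 and 74.8 CPM. The time groups did not overlap in either strain. The log2 change was -0.54 ± 0.15 (SE) in WT (adjusted p = 0.0286, edgeR) and 0.55 ± 0.15 in S52A (adjusted p = 0.0479). Both calls were lost whichever library was left out, with adjusted p from 0.062 to 0.165 in WT and from 0.0953 to 0.206 in S52A. With library size alone mrp17 was at -0.03 (adjusted p = 0.899) in WT and 1.14 (adjusted p = 0.00291) in S52A, so the fall in WT rests on the scaling. The difference between the changes in the strains, 1.17 with library size alone, was 1.10 ± 0.21 on the TMM scale, with 1.13 in experiment A and 1.06 in experiment B, and did not pass the test over all genes (adjusted p = 0.369 with edgeR, 0.20 with the block), while DESeq2 gave an adjusted p of 0.00219. In total mRNA mrp17 went from 57.9 and 64.1 CPM to 49.1 and 49.3 CPM in WT and from 58.3 and 67.9 CPM to 68.8 and 71.6 CPM in S52A, with no overlap between times. The changes there were -0.31 ± 0.15 (adjusted p = 0.186) and 0.15 ± 0.15 (adjusted p = 0.621).

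The other called members were a large-subunit pair. mrp49 (mL61, a mitochondria-specific protein) fell in WT polysomes from 23.5 and 24.9 CPM to 14.5 and 16.1 CPM, a log2 change of -0.66 ± 0.19 (adjusted p = 0.0356, and 0.0989 to 0.147 when any 1 library was left out), and with library size alone the estimate was -0.15 (adjusted p = 0.639). In S52A polysomes it went from 18.4 and 18.4 CPM to 14.5 and 18.2 CPM (-0.17 ± 0.20, adjusted p = 0.658). SPCC777.17c (L9) rose in S52A polysomes from 34.5 and 35.2 CPM to 74.5 and 46.3 CPM, by 0.79 ± 0.21 (adjusted p = 0.0461). The rise was 1.11 in experiment A and 0.39 in experiment B, and the adjusted p was 0.00498 without replicate 2 of the 6 h group and 0.12 to 0.327 without any of the other 3 libraries. In WT polysomes SPCC777.17c went from 41.7 and 37.5 CPM to 44.8 and 41.6 CPM (0.13 ± 0.21, adjusted p = 0.709). The change between strains in these members did not pass the test either (0.49 ± 0.28 for mrp49 and 0.67 ± 0.30 for SPCC777.17c, both adjusted p = 0.848).

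**Figure D3:**
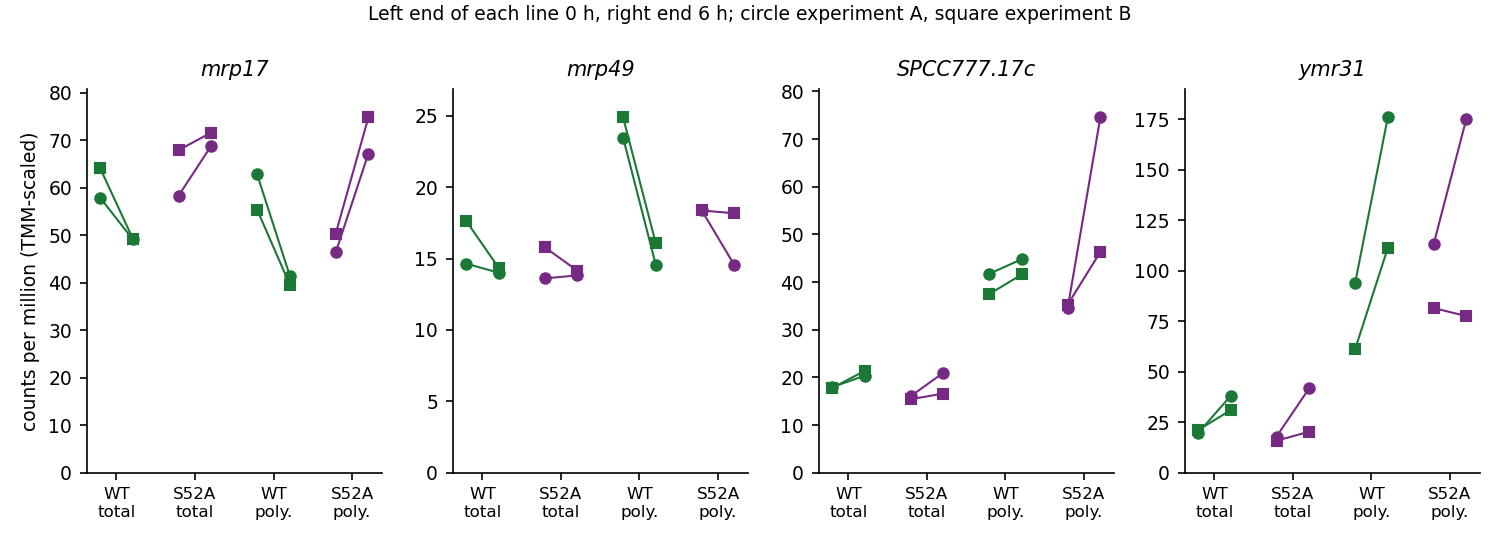
Levels in CPM (TMM-scaled) of the 3 members called in a time change and of ymr31 in every library, with lines joining 0 h (left) and 6 h (right) of an experiment, green for WT and purple for S52A. mrp17 went from 62.8 and 55.3 to 41.4 and 39.6 in WT polysomes and from 46.3 and 50.3 to 67.2 and 74.8 in S52A polysomes.

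Some members that did not pass had estimates on one side of 0 in more than 1 comparison, among them ymr31, mrpl3 and rsm18. ymr31, whose counterpart in Saccharomyces cerevisiae is a subunit of the 2-oxoglutarate dehydrogenase complex, had estimates of 0.89 ± 0.41 in WT polysomes (adjusted p = 0.149, and 0.0276 with the block), 0.38 ± 0.41 in S52A polysomes, 0.76 ± 0.41 in WT total mRNA and 0.88 ± 0.41 in S52A total mRNA. It ranged from 61.1 to 176 CPM in polysomes and from 15.9 to 41.9 CPM in total mRNA, and in 7 of the 8 pairs of libraries it was higher at 6 h. mrpl3 (mL44) had the lowest estimates in S52A, -1.02 ± 0.28 in polysomes (adjusted p = 0.0515) and -1.03 ± 0.28 in total mRNA (adjusted p = 0.0675). It went from 41.4 and 59.6 CPM to 21.005 and 28.9 CPM in S52A polysomes and from 55.3 and 58.2 CPM to 31.3 and 24.1 CPM in total mRNA, so the groups did not overlap. With the block its adjusted p was 0.0229 in polysomes and 0.0244 in total mRNA. In WT total mRNA mrpl3 went from 57.6 and 58.7 CPM to 50.3 and 52.5 CPM.

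rsm18 (bS18m, small subunit) had estimates of -0.61 ± 0.22 in WT total mRNA (adjusted p = 0.0879, and 0.0495 with the block) and -0.84 ± 0.22 in S52A total mRNA (adjusted p = 0.0621, and 0.0294 with the block). Its total mRNA went from 64.8 and 63.2 CPM to 43.1 and 40.98 CPM in WT and from 56.9 and 57.3 CPM to 33.9 and 29.96 CPM in S52A, with no overlap. In S52A total mRNA mrp4 (uS2m) had an estimate of -0.57 ± 0.16 (adjusted p = 0.0738, and 0.033 with the block). The block also took mrpl37 (mL54, -0.66 ± 0.19, adjusted p = 0.0379), mrp2 (0.0338) and rsm7 (0.0344) below 0.05 in S52A polysomes, and mrpl38 (0.0437) and SPBC83.06c (bL36m, 0.0325) in WT polysomes. In the remaining cases the values with the largest estimates were 0.65 ± 0.38 for mrp10 (mS37) and 0.61 ± 0.26 for mrpl38 in WT polysomes, -0.50 ± 0.36 for SPAC3A12.19 there, and 0.95 ± 0.45 for cox1102 and -0.76 ± 0.27 for mrp5 (uS5m) in S52A polysomes. In total mRNA they were 0.78 ± 0.33 for cox1101, 0.52 ± 0.37 for cox1102, -0.54 ± 0.22 for mrpl25 (mL59) and -0.49 ± 0.26 for mrp5 in WT, and 0.61 ± 0.18 for mrpl33 (uL30m) and 0.48 ± 0.32 for SPAC3A12.19 in S52A. None of these had an adjusted p under 0.05 by edgeR.

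Translation efficiency (TE), the change in polysomes relative to the change in total mRNA, was then compared. The members' median TE change was 0.05 in WT and 0.03 in S52A, and none was called in either strain (0.0162% and 0% of all genes were). At an unadjusted p under 0.05 there were 0 members in WT (2.53% of all genes) and 3 in S52A (1.6%), and DESeq2 called 0 in both (0.0972 and 0.0486% of all genes). Estimates ran from -0.54 to 0.59 in WT and from -0.99 to 0.69 in S52A. The cytosolic ribosomal proteins had median TE changes of -0.11 and -0.52. The strain difference in the time change had a median over members of -0.13 in polysomes and -0.02 in total mRNA, with 0 called (0% of all genes in each). At an unadjusted p under 0.05 there were 9 members in polysomes (5.59% of all genes) and 5 in total mRNA (2.37%). DESeq2 called 1 member in polysomes, mrp17 (0.389% of all genes), and 0 in total mRNA (0.0162%).

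At each time the strains were close for most members. At 0 h the median of S52A versus WT was 0.00 in polysomes and -0.06 in total mRNA, with 0 members called (0% and 0.0162% of all genes). At an unadjusted p under 0.05 there were 5 members in polysomes (8.91% of all genes) and 1 in total mRNA (2.04%). DESeq2 called 0 in total mRNA (0.081% of all genes) and 0 in polysomes (8.83% of the 351 genes with an adjusted p), where it gave no adjusted p for 73 of the 74 members. All 74 lay within 0.5 of 0 in total mRNA. Large estimates in polysomes were 0.53 ± 0.26 for mrpl38 and 0.46 ± 0.16 for mrpl1 (uL1m, of the L1 stalk), and -0.97 ± 0.28 for mrp51, -0.96 ± 0.39 for cox1101 and -0.84 ± 0.39 for mrpl32 (bL32m), with adjusted p of 0.421 to 0.567. mrp51 stood at 35.05 and 49.97 CPM in WT and at 15.9 and 27.2 CPM in S52A. In total mRNA they were 0.35 ± 0.20 for mrpl39 (bL33m), 0.32 ± 0.33 for cox1101, 0.31 ± 0.21 for SPBC83.06c, -0.42 ± 0.18 for rsm27 (mS33), -0.27 ± 0.41 for ymr31 and -0.24 ± 0.27 for mrp11.

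At 6 h the medians were -0.10 in polysomes and -0.11 in total mRNA. In polysomes 1 member, mrp17, was higher in S52A (0.486% of all genes) and 0 were lower (0.438% of all genes), with 16 members at an unadjusted p under 0.05 (19.1% of all genes), 9 of them lower. mrp17 stood at 41.4 and 39.6 CPM in WT and 67.2 and 74.8 CPM in S52A, a log2 difference of 0.81 ± 0.15 (adjusted p = 0.0295, edgeR). That call passed without replicate 1 of S52A (0.0274) and was lost without each of the other 3 libraries, with adjusted p up to 0.267, and it was also lost when counts were scaled without cytosolic ribosomal proteins (0.12) or to library size alone (0.46, adjusted p = 0.144). DESeq2 called 3 members (6.14% of all genes) and the block 2 (3.71%), mrp7 with adjusted p = 0.0448 beside mrp17. In total mRNA at 6 h 0 members were called (0.519% of all genes), with 11 at an unadjusted p under 0.05 (13% of all genes) and 1 called by DESeq2 (2.87%), mrp17 (0.51 ± 0.15, adjusted p = 0.0104 by DESeq2 and 0.187 by edgeR). Of the small-subunit members 24 of 28 had estimates below 0 there, and of the large-subunit members 27 of 43. The median of all genes in that comparison was itself -0.03. Members measured in the same libraries are not independent replicates, and these counts were not tested.

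A few large-subunit members had lower values in S52A at 6 h in both fractions without passing the test. mrp11 (uL10m, which anchors the stalk) was at 132 and 186 CPM in WT polysomes and 84.4 and 96.4 CPM in S52A (-0.81 ± 0.27, adjusted p = 0.141), and at 82.8 and 89.2 against 52.6 and 38.6 CPM in total mRNA (-0.92 ± 0.27, adjusted p = 0.199). mrp7 (bL27m, next to the peptidyl transferase centre) was at 72.5 and 66.8 against 47.7 and 29.3 CPM in polysomes (-0.85 ± 0.24, adjusted p = 0.105) and at 53.3 and 45.9 against 33.3 and 21.1 CPM in total mRNA (-0.87 ± 0.24, adjusted p = 0.182). The groups did not overlap for either gene in either fraction, and S52A replicate 2 was the lower of its pair in total mRNA, the library whose cytosolic ribosomal protein share stood apart. Its part in these values was not tested. The small-subunit member mrp10 was at -0.89 ± 0.38 in polysomes, and the large-subunit member mrpl3 was at -0.89 ± 0.28 in total mRNA. Estimates above 0 were 0.58 ± 0.22 for mrpl25 in polysomes, and 0.87 ± 0.32 for SPAC3A12.19 and 0.56 ± 0.18 for mrpl33 in total mRNA, with adjusted p from 0.181 to 0.286.

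The comparison of polysome fractions with total mRNA of the same cells gave the largest values. In WT cells at 0 h the members' median log2 difference was 0.71, with 43 of 74 higher in polysomes and 2 lower, against 18.4% of all genes higher and 18.4% lower and a median of -0.05. In WT cells at 6 h it was 0.78, with 42 higher and 2 lower (17.8 and 18.3% of all genes). In S52A cells at 0 h it was 0.79, with 41 higher and 6 lower (22.1 and 22.4%), and at 6 h 0.70, with 43 higher and 6 lower (21.7 and 21%). Across these groups 40 of 74 members were higher in all 4 comparisons (54.1%, against 14.9% of all genes), 1 was lower in all 4, mug178, and 21 were called in none.

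These directions depended on the scaling. The polysome libraries held a larger share of cytosolic ribosomal protein reads than the total mRNA libraries. Scaled to library size without those reads, the median of all genes moved by -0.65, -0.60, -0.88 and -0.71 from the TMM scale in the 4 groups. What made up these shifts was not tested. With library size alone the median of all genes moved by -1.16, -0.89, -1.57 and -1.12 in the 4 groups, and the members' medians were -0.45, -0.11, -0.78 and -0.42. With that scaling 27, 17, 48 and 22 members were called lower, beside 64.2, 54.1, 75.7 and 61.9% of all genes, and 0, 5, 2 and 6 were called higher, beside 3.24, 4.42, 3.16 and 4.17%. The distance between the medians of members and of all genes was 0.74 to 0.85 under each of 4 scalings. A change of scaling moves all genes of a comparison by nearly the same amount, so it could hardly alter this distance. On the TMM scale the cytosolic ribosomal proteins had medians of 2.03 to 2.64, respiratory chain and ATP synthase genes of 1.09 to 1.23, import components of 0.76 to 1.09, translation factors of -0.24 to -0.15 and mitochondrial tRNA ligases of -0.23 to 0.08. Members lay near the import components and above the translation factors and tRNA ligases that work beside them in mitochondria. This difference between lists was not tested, and the lists were not matched for coding length, which is described below.

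Large-subunit members had higher medians (0.88, 0.85, 0.82 and 0.81 in the order above) than small-subunit members (0.57, 0.65, 0.35 and 0.62). The share called higher in WT at 0 h was 29 of 43 and 13 of 28, against 18.4% of all genes. The subunits were not matched for coding length, which is described below, and their difference was not tested. Bacterial-type members (0.88, 0.84, 0.81 and 0.71) and mitochondria-specific members (0.67, 0.80, 0.95 and 0.75) had no constant order.

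**Figure D4:**
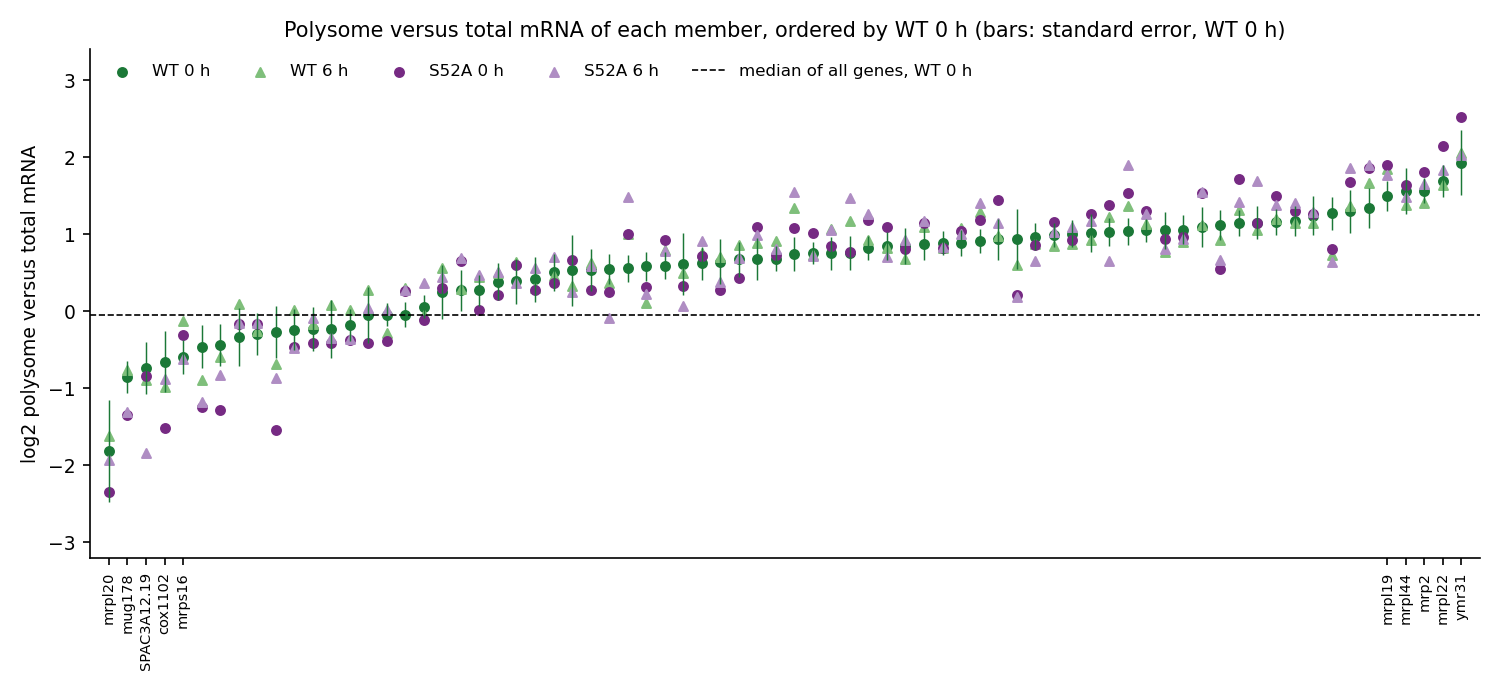
Log2 of polysome versus total mRNA (TMM-scaled) of the 74 members, 1 position each, ordered by the value in WT cells at 0 h, for the 4 groups; bars give the standard error in WT at 0 h and the dashed line the median of all genes there, -0.05. Values run from -1.82 for mrpl20 to 1.92 for ymr31 in WT at 0 h, and the members at both ends keep their side in all 4 groups.

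At the upper end were ymr31, mrpl22, mrp2, mrpl44 and mrpl19. ymr31 was at 19.6 and 21.1 CPM in WT total mRNA at 0 h and at 93.8 and 61.1 CPM in polysomes, a log2 difference of 1.92 ± 0.42 (adjusted p = 0.00375), and its values in the other groups were 2.05, 2.52 and 2.02. mrpl22 (uL22m, which lines the exit tunnel) was at 38.7 and 46.8 CPM in total mRNA and 138 and 138 CPM in polysomes (1.69 ± 0.21, adjusted p = 0.000131), then 1.64, 2.14 and 1.84. mrp2 (uS14m, in the head of the small subunit) was at 54.1 and 57.9 CPM and 174 and 157 CPM (1.56 ± 0.16, adjusted p = 8.55e-05), then 1.41, 1.80 and 1.66. The groups of these genes did not overlap in any of the 4 comparisons. mrpl44 (mL53) had values of 1.56, 1.38, 1.64 and 1.48 and mrpl19 (uL11m, at the factor-binding centre) of 1.497, 1.85, 1.90 and 1.77. In other groups mrpl38 (1.67, 1.85 and 1.90 after 1.34 in WT at 0 h), mrpl28 (mL40, 1.90 in S52A at 6 h) and mrpl31 (mL60, 1.85 there) also stood among the first 5. Even with library size alone ymr31 and mrpl22 had estimates above 0 in every group (0.74 to 1.15 and 0.51 to 0.74).

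At the lower end were mrpl20, mug178, mrp51, rsm10 and SPAC3A12.19. mrpl20 was at 18.1 and 15.1 CPM in WT total mRNA at 0 h and at 1.999 and 7.07 CPM in polysomes, with estimates of -1.82 ± 0.66 (adjusted p = 0.0484), -1.61 ± 0.66 (0.0731), -2.35 ± 0.70 (0.0167) and -1.94 ± 0.67 (0.0344). Its polysome level was 1.84 to 2.14 CPM in the 4 libraries of experiment A and 5.18 to 7.07 CPM in those of experiment B. The size of the difference thus turned on the experiment while its direction did not. Such a split was not particular to mrpl20. Polysome levels of rsm19, img2 and SPAC29A4.03c were also higher in experiment B in all 4 groups. Those of ymr31, mrp2 and mrp5 were lower in experiment B in all 4. mug178 was at 53.1 and 44.1 CPM in WT total mRNA at 0 h and 28.3 and 25.6 CPM in polysomes, with estimates of -0.85 ± 0.21 (adjusted p = 0.00664), -0.77, -1.35 and -1.30, all called. RefSeq gives mug178 and mrp51 the same product, bS1m. mrp51, whose S. cerevisiae namesake acts on the leaders of mitochondrial mRNAs, had -0.44, -0.59, -1.28 and -0.83, of which both S52A values were called (adjusted p = 0.00287 and 0.027). rsm10 (uS10m) had -0.46, -0.90, -1.24 and -1.18, called in all but WT at 0 h. SPAC3A12.19, with 1.90 to 10.5 CPM over all libraries, had -0.73, -0.90, -0.84 and -1.84 and was called in S52A at 6 h. cox1101 and cox1102 were lower in polysomes of S52A at 0 h (-1.54 ± 0.38 and -1.52 ± 0.43), with the doubt about their reads given above. Leaving out 1 library lost the call of mrpl20 in 3 of 4 cases in WT at 0 h (adjusted p up to 0.252) and of mug178 in 1 (0.0628).

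mrp17 stood near 0 in this comparison, at -0.05, -0.28, -0.38 and 0.02, none called. rsm1, the RNA export factor that shares only its name with the members, was at 26.9 and 28.5 CPM in WT total mRNA and 33.3 and 39.7 CPM in polysomes at 0 h, with estimates of 0.40, 0.51, 0.82 and 0.66, of which the S52A values were called (adjusted p = 0.00534 and 0.0177).

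Short coding sequences were more abundant in polysome fractions relative to total mRNA throughout the data, and members are short. Their coding lengths had a median of 532.5 bases, and the shortest was 168 bases. Across 5012 tested genes the Spearman correlation of the log2 difference with coding length was -0.57 in WT at 0 h, -0.55 in WT at 6 h, -0.47 in S52A at 0 h and -0.49 in S52A at 6 h, and across the 74 members it was -0.32, -0.28, -0.24 and -0.23. Genes of one set of libraries are not independent replicates, so these are descriptions. Within classes of coding length the medians of members and of all genes in WT at 0 h were as follows: 0.94 against 0.91 for 300 to 449 bases (17 members), 0.80 against 0.78 for 450 to 599 bases (12 members), 0.68 against 0.55 for 600 to 899 bases (23 members) and -0.11 against 0.04 for 900 to 1499 bases (8 members). The 11 members of 150 to 299 bases had a median of 0.61, below the 0.93 of all 192 genes of that length. In other groups the gaps were wider in some classes and narrower in others. For 900 to 1499 bases the medians were 0.16 against 0.11 in WT at 6 h and 0.05 against 0.06 in S52A at 0 h. That class had 0.10 against 0.15 in S52A at 6 h. For 150 to 299 bases WT at 6 h had 0.73 against 0.97. For 600 to 899 bases the medians were 0.79 against 0.54 in WT at 6 h and 0.94 against 0.60 in S52A at 0 h, and for 150 to 299 bases they were 0.54 against 0.93 in S52A at 0 h. In S52A at 6 h the class of 300 to 449 bases had 1.27 against 0.99 and that of 600 to 899 bases 0.81 against 0.62. The part of length in the members' polysome values was not tested.

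**Figure D5:**
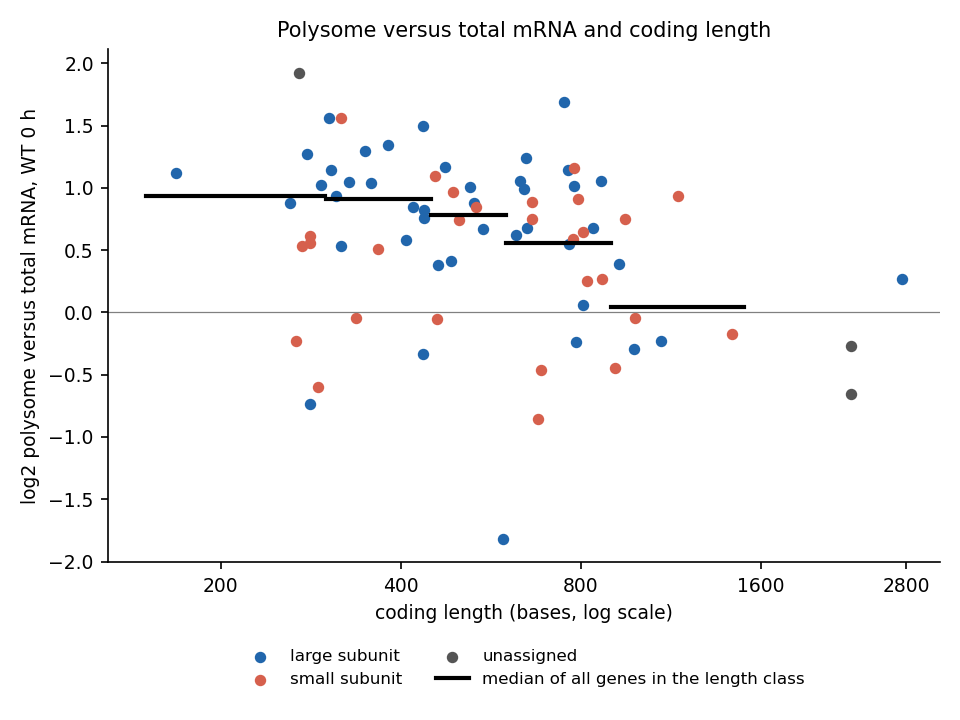
Log2 of polysome versus total mRNA in WT cells at 0 h against coding length (log axis) for the 74 members, coloured by subunit, with black lines for the median of all tested genes in 5 classes of length. The lines fall from 0.93 for 150 to 299 bases to 0.04 for 900 to 1499 bases, and members lie on both sides of them.

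Members with an upstream ATG in the annotated leader had a median of 0.84 (25 members) and those without one of 0.61 (37 members) in WT at 0 h, and 0.90 and 0.63, 0.997 and 0.59, and 0.81 and 0.66 in the other groups. Over all genes with such leaders the order was the opposite, with -0.40 for 1631 genes with an upstream ATG and 0.27 for 2735 without in WT at 0 h. This difference in order was not tested.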

How the data were processed

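Total mRNA and polysome-associated mRNA were sequenced in 16 libraries. The authors made stranded poly(A) libraries, aligned reads with STAR to ASM294v2 and assigned them to genes with QoRTs by strand. No version of these tools was found in the labels or methods. The table that the authors deposited and that was used here holds raw whole-number counts. Another deposited table, normalized with DESeq2, was not used. Counts were filtered with filterByExpr, scaled by TMM (factors 0.434 to 1.69) and tested with edgeR 4.0.16 (quasi-likelihood F-test, limma 3.58.1, R 4.3.3) in 1 model of 8 groups with 8 residual degrees of freedom, with Benjamini-Hochberg adjustment across 6170 genes within each of 16 comparisons. CPM use the TMM-scaled library size, and log2 values of single experiments used a prior count of 1. The script was tested on simulated data.

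Members, lists and motifs were chosen with earlier results of these data known. Named members are, per time change, strain comparison at one time and polysome-versus-total comparison, at most the 5 largest called rises and falls at a mean log2 CPM of at least 2, or the 3 largest estimates of a direction with fewer than 3 calls, and the 4 highest and 4 lowest levels per kilobase. Members named beyond this rule were chosen after their values were seen. Subunits followed RefSeq products, which moved mrp51 and mug178 to the small subunit and placed 5 members that the description left unassigned. All 76 identifiers matched a RefSeq locus tag of ASM294v3, another assembly than the authors', so no coordinates are given. The labels number the replicates and do not say which libraries share an experiment. Treating the replicate number as the mark of a shared experiment is an assumption made here. Deviations from group means correlated with r over 0.1 in 22 of 28 pairs of groups (range -0.09 to 0.58). The alternatives were RLE factors, library size alone or without cytosolic ribosomal protein counts, no filter, the experiment as a block, DESeq2 1.42.0 and each library left out. Values of 1 member that the naming rule selects are not reported here.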

Additional observations from a re-analysis of the deposited data

How the results depend on the processing

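All members passed the filter on low counts, which does not ask for high counts in every library. In S52A 0 h polysome replicate 1 mrpl20 stood at 1.84, cox1101 at 1.43 and cox1102 at 1.02 CPM, so depth may have limited these. Groups of 2 libraries leave single calls dependent on each library. With library size alone 19 members were called for the time change in WT polysomes (median 0.52) and 18 in S52A polysomes (0.46). Between strains in polysomes at 6 h 3 were called, all lower (-0.45), beside 22 higher and 233 lower of 6170 genes. For polysome versus total 27 were called in WT at 0 h (-0.45), 22 in WT at 6 h (-0.11) and 28 in S52A at 6 h (-0.42). The median in S52A at 0 h was -0.78. Shares of all genes for the time changes and for polysome versus total are given above. Other medians with that scaling were 0.19 for the time change in WT total mRNA, 0.33 and 0.48 for the TE change in WT and S52A, and -0.42 and -0.083 between strains at 0 h in polysomes and total mRNA. Scaled without cytosolic ribosomal protein counts, polysome versus total gave 22 calls (0.070), 24 (0.18), 31 (-0.088) and 32 (-0.012), the time change in WT polysomes 1, and strains in polysomes at 6 h 0 (-0.22), while medians were 0.20 for the TE change in S52A, 0.0075 for the strain difference in the polysome time change, and -0.25 and -0.074 between strains at 0 h in polysomes and total mRNA. These shifts follow from the scaling of all genes.

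With the experiment as a replicate block, which pairs the libraries, the calls numbered 5 and 6 for the time change in WT and S52A polysomes, 1 and 3 in WT and S52A total mRNA, and 2 between strains in polysomes at 6 h, and 10 more values of named members passed while none was lost. DESeq2 called 6 in S52A polysomes, 1 and 4 in WT and S52A total mRNA, 1 for the strain difference in the polysome time change, and 3 and 1 between strains at 6 h in polysomes and total mRNA. DESeq2 and RLE factors gave medians of 0.0094 and 0.0089 for the TE change in S52A, and each gave 0.85 for polysome versus total in WT at 6 h. With no filter 1 member was called in S52A polysomes.

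Leaving out 1 library at a time gave 0 to 0 calls and medians of -0.10 to 0.19 in WT polysomes. In S52A polysomes it gave 0 to 3 calls, 3 without S52A 6 h polysome replicate 2 and 0 otherwise. Between strains in polysomes at 6 h it gave 0 to 2, with 2 without S52A replicate 1 and 0 otherwise. Polysome versus total in WT at 0 h gave 28 to 41 calls, 28 without WT total replicate 1, with medians of 0.53 to 0.88. Medians ran from 0.59 to 0.92 and 0.66 to 0.87 for polysome versus total in S52A at 0 h and 6 h, from -0.093 to -0.018 for WT total mRNA, from -0.042 to 0.14 and -0.057 to 0.22 for the TE change in WT and S52A, from -0.24 to 0.050 for the strain difference in the polysome time change, and from -0.20 to 0.14 and -0.11 to -0.040 between strains at 0 h in polysomes and total mRNA. Of the values of named members, 37 lost and 3 gained a call and 296 kept their side, and none reversed. The causes were not tested.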
